A study of Homo sapiens with 10 samples.

Results

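The MAP kinase phosphatases are dual-specificity phosphatases (DUSPs) that remove phosphate from both the threonine and the tyrosine of an activated MAP kinase. The family was taken as 10 genes, and the count rows of the deposit were matched to their symbols: DUSP6, DUSP7 and DUSP9, which act mainly on ERK in the cytoplasm, DUSP1, DUSP2, DUSP4 and DUSP5, which are nuclear enzymes of inducible genes, and DUSP8, DUSP10 and DUSP16, which act mainly on p38 and JNK. All 10 were found among the 55841 gene identifiers of the deposit, and all 10 were among the 23552 genes left by a filter on low counts.

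ERK, p38 and JNK are switched on by phosphorylation from upstream kinases and switched off by these phosphatases. Several of the phosphatase genes are themselves transcribed in response to ERK activity, so that they form a negative feedback on the pathway, and DUSP6 in particular is widely used as a transcriptional readout of FGF signalling through ERK. In human pluripotent stem cells FGF and ERK signalling supports self-renewal, and the same pathway takes part in the exit from the undifferentiated state.

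RNA was sequenced from HES9, as the labels name this line of human embryonic stem cells, grown on matrigel in the defined medium mTESR1. A general population, which was not sorted, was compared with the HHH fraction, sorted for the highest EPCAM level among cells high for the surface antigens GCTM-2 and CD9. Each population had 5 libraries, 2 in batch 1 and 3 in batch 2, and the 10 libraries held 47242595 to 78503395 counts. The labels carry no treatment, although the design text mentions a protein kinase C inhibitor, and the text of the study names WA09 in place of HES9 for the transcriptome, which could not be resolved here. Because the general cells were not sorted, an effect of sorting cannot be told apart from the difference between the populations. Whether the general cells were dissociated in the same way is not given in the sources used here. The labels do not say that the libraries of a group came from separate cultures, so p-values measure the spread between these libraries, which may be technical.

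Of the 10 phosphatases, DUSP6 and DUSP5 were higher in HHH and DUSP10 was lower, at an adjusted p under 0.05 in edgeR's quasi-likelihood test with batch as an additive term. The other 7 did not pass. Among all tested genes 5.83% passed in either direction, 1.94% as higher and 3.89% as lower in HHH. All 3 phosphatases that passed also had an estimated difference of more than 1.5-fold, as did 0.637% of all tested genes as higher and 2.34% as lower. In a test against a 1.5-fold change only DUSP6 of the 3 passed. By group, 1 of the 3 ERK-selective enzymes and 1 of the 4 nuclear inducible enzymes rose, and 1 of the 3 others fell. The median log2 fold change was 0.17 for the ERK-selective enzymes, 0.034 for the nuclear inducible enzymes and -0.30 for the others, with 0.016 over all tested genes. No group had more than 1 member past the threshold. The study itself named DUSP5 and DUSP6 as higher in HHH from these same libraries, so their direction here is not independent evidence.

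**Figure D1:**
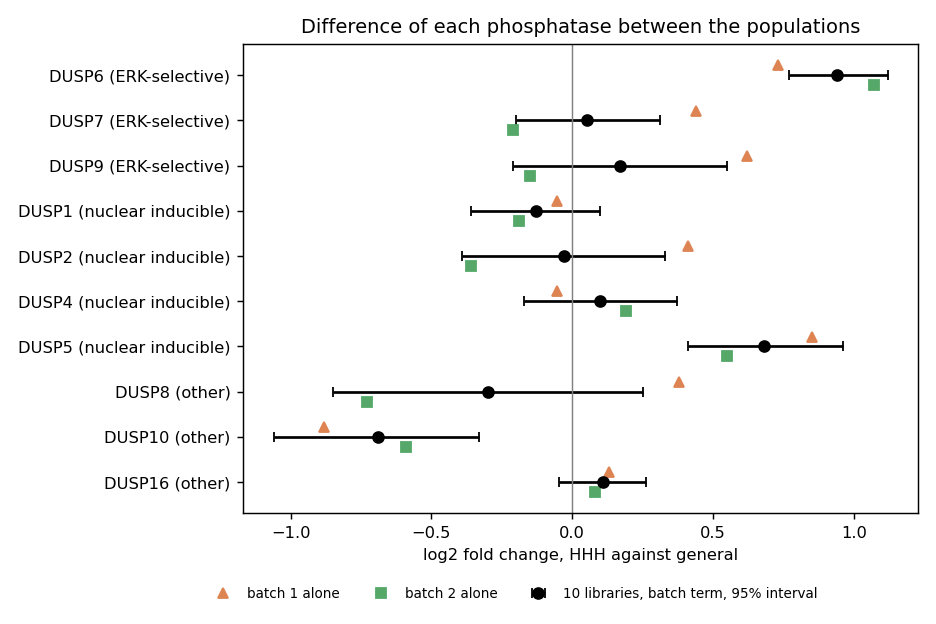
Log2 fold change of HHH against general (horizontal axis) for each of the 10 phosphatases. Black circles give the fit over all 10 libraries with its 95% interval, orange triangles the fit of batch 1 alone and green squares that of batch 2 alone. DUSP6 and DUSP5 lie right of 0 and DUSP10 left of 0 in all 3 fits, whereas DUSP7, DUSP9, DUSP2 and DUSP8 lie right of 0 in batch 1 and left of it in batch 2.

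The start sites of the members on which the results turn are shown with short motifs. Entries were available for 8 of the 10 members in the RefSeq promoter table (GRCh38.p14), each spanning 250 bases before to 50 bases after a start, with 2 entries each for DUSP9 and DUSP10 and no entry used for DUSP4 and DUSP5. Printed are DUSP6, which rose most, DUSP10, which fell, and DUSP1 as the classical immediate early member of the family, all 5′ to 3′ on the gene's own strand. Capitals mark an ETS core (CGGAAG), a cyclic AMP response element (CRE, TGACGTCA) or a TATA box (TATAAA), each searched on both strands, with no overlap between marked motifs.
DUSP6, chr12:89352452-89352751, minus strand: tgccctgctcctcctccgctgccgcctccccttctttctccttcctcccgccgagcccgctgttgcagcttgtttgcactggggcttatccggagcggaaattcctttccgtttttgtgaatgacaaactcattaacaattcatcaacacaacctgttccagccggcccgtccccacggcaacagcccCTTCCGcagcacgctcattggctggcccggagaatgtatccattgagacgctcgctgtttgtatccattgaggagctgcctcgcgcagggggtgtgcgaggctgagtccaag
DUSP10, chr1:221742040-221742339, minus strand: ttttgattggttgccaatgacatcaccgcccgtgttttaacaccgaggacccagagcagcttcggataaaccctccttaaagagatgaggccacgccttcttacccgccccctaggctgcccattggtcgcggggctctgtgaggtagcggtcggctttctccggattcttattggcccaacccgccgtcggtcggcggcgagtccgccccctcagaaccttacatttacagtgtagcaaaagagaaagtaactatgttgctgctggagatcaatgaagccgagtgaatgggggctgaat
DUSP10, chr1:221736851-221737150, minus strand: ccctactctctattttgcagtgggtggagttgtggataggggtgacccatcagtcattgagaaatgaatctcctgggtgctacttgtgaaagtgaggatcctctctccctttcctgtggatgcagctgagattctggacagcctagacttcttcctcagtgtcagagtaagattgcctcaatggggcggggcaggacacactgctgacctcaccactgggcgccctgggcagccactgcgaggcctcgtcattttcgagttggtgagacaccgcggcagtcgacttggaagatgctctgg
DUSP1, chr5:172771146-172771445, minus strand: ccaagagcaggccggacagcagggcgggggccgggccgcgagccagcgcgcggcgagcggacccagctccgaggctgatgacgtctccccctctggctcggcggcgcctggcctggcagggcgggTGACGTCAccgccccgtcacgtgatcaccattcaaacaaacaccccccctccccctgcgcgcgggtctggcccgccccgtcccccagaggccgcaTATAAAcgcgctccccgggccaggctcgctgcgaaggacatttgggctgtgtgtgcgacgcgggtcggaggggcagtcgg
The DUSP6 window held 1 ETS core, read on the opposite strand, and no CRE or TATA box. The DUSP1 window held 1 CRE and 1 TATA box, and neither DUSP10 window held any of these motifs. Among the other members searched DUSP8 held 1 ETS core and 2 CREs, and the windows of DUSP7, DUSP9, DUSP2 and DUSP16 held none of them. An AP-1 motif (TGANTCA) was found in none of the 8 members searched. Of all 35116 promoters in the table, 19.5% held the ETS core, 1.85% the CRE, 7.71% the AP-1 motif and 11.5% the TATA box. These matches are a description of the letters and not of bound sites.

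DUSP6, the cytoplasmic ERK phosphatase, rose most of the 10. Its gene lies on chromosome 12 at 89347235 to 89352501, minus strand (GENCODE 44, GRCh38). The general libraries held 214 and 206 CPM (counts scaled to a common TMM-adjusted library size) in batch 1 and 109, 109 and 96.0 CPM in batch 2. The HHH libraries held 344 and 354 CPM in batch 1 and 231, 226 and 207 CPM in batch 2. Every HHH library was above every general library of its own batch, and the populations overlapped only across batches, since the level was lower in batch 2 for both. The mean level was 147 ± 57.8 CPM (SD, n = 5) in general against 272 ± 70.6 CPM (SD, n = 5) in HHH. This was a log2 fold change of 0.94 (SE 0.082) with a 95% interval of 0.77 to 1.12, or 1.92-fold, with an adjusted p of 8.14e-06 in edgeR. Within batch 1 the log2 fold change was 0.73 (adjusted p = 0.0296, edgeR) and within batch 2 it was 1.07 (adjusted p = 7.43e-06, edgeR). DUSP6 remained past the threshold when each of the 10 libraries was left out in turn, with a highest adjusted p of 8.52e-05 in edgeR, and was also past it in a test against a 1.5-fold change (adjusted p = 0.0124, edgeR).

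DUSP7 and DUSP9, the other ERK-selective enzymes, did not pass. DUSP7 is a close relative of DUSP6 in the cytoplasm. It was at 6.04 and 6.86 CPM in general and at 8.47 and 9.11 CPM in HHH in batch 1, and at 7.78, 7.48 and 7.80 CPM in general and at 7.02, 6.81 and 6.13 CPM in HHH in batch 2. HHH was thus above general throughout batch 1 and below it throughout batch 2. The pooled log2 fold change of DUSP7 was 0.053 with a 95% interval of -0.20 to 0.31 (adjusted p = 0.842, edgeR), an interval that lies wholly below that of DUSP6. It pools unlike batches, with a log2 fold change of 0.44 in batch 1 and -0.21 in batch 2. DUSP9, an X-linked ERK phosphatase known from the placenta, was at 1.18 and 1.14 CPM in general and at 1.80 and 1.79 CPM in HHH in batch 1. In batch 2 it was at 1.15, 1.44 and 1.23 CPM in general and at 1.05, 1.42 and 0.990 CPM in HHH. The HHH values of DUSP9 were higher in batch 1 and overlapped the general values in batch 2. Its pooled log2 fold change was 0.17, with a 95% interval of -0.21 to 0.55 (adjusted p = 0.627, edgeR) and 56 to 84 counts per library.

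Among the nuclear inducible enzymes DUSP5 rose. DUSP5 acts on ERK in the nucleus, and its gene lies on chromosome 10 at 110497907 to 110511533, plus strand. The general libraries held 25.2 and 30.3 CPM in batch 1 and 17.5, 18.4 and 13.0 CPM in batch 2. The HHH libraries held 56.1 and 44.5 CPM in batch 1 and 28.3, 25.0 and 18.9 CPM in batch 2. Each HHH library was above each general library of its batch, and the overlap across batches again followed the lower level of both populations in batch 2. The mean level was 20.9 ± 6.83 CPM (SD, n = 5) in general against 34.5 ± 15.3 CPM (SD, n = 5) in HHH, and the log2 fold change was 0.68 (SE 0.13) with a 95% interval of 0.41 to 0.96, or 1.60-fold (adjusted p = 0.00527, edgeR). It was 0.85 within batch 1 (adjusted p = 0.0481, edgeR) and 0.55 within batch 2 (adjusted p = 0.0286, edgeR). With each library left out in turn DUSP5 passed 10 times of 10, with a highest adjusted p of 0.0224 in edgeR. It did not pass with limma on the deposited log2 values (log2 fold change 0.54, adjusted p = 0.0591).

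DUSP1, DUSP2 and DUSP4, the other nuclear enzymes, did not pass. DUSP1, an immediate early gene whose product acts on p38 and JNK as well as on ERK, ranged from 6.72 to 10.3 CPM in general with a median of 8.60 CPM, and from 6.18 to 10.1 CPM in HHH with a median of 7.35 CPM. The populations overlapped in both batches, and the log2 fold change was -0.13 with a 95% interval of -0.36 to 0.10 (adjusted p = 0.527, edgeR). DUSP4, which acts on ERK and other MAP kinases in the nucleus, ranged from 11.4 to 19.7 CPM in general and from 13.0 to 17.2 CPM in HHH, and also overlapped in both batches. Its log2 fold change was 0.098 with a 95% interval of -0.17 to 0.37 (adjusted p = 0.707, edgeR). DUSP2, known from activated lymphocytes, was at 4.95 and 6.15 CPM in general and at 8.94 and 5.81 CPM in HHH in batch 1, and at 3.94, 3.48 and 3.27 CPM in general and at 2.37, 3.18 and 2.79 CPM in HHH in batch 2. The populations overlapped in batch 1, and every HHH library was below every general library in batch 2. Its log2 fold change was -0.031 with a 95% interval of -0.39 to 0.33 (adjusted p = 0.940, edgeR). The intervals of all 3 ended below the lower bound of the DUSP5 interval, although that of DUSP2 pools 0.41 in batch 1 and -0.36 in batch 2.

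DUSP10, which acts mainly on p38 and JNK, was the member that fell. Its gene lies on chromosome 1 at 221701424 to 221742089, minus strand. The general libraries held 1.39 and 1.26 CPM in batch 1 and 0.972, 1.53 and 1.40 CPM in batch 2. The HHH libraries held 0.665 and 0.778 CPM in batch 1 and 0.739, 0.951 and 0.919 CPM in batch 2. All 5 HHH libraries were below all 5 general libraries, although the highest HHH value and the lowest general value were close. The mean level was 1.31 ± 0.212 CPM (SD, n = 5) in general against 0.810 ± 0.122 CPM (SD, n = 5) in HHH, with a log2 fold change of -0.69 (SE 0.17) and a 95% interval of -1.06 to -0.33, or 1.62-fold lower in HHH (adjusted p = 0.0271, edgeR). The libraries held 31 to 91 counts of DUSP10, and with 1 library left out the call held 5 times of 10. It was lost without general batch 1 replicate 1 (adjusted p = 0.0616), HHH batch 1 replicate 2 (0.0706), HHH batch 2 replicate 1 (0.0822), general batch 2 replicate 2 (0.0790) or general batch 2 replicate 3 (0.0655), all in edgeR and with log2 fold changes between -0.68 and -0.63. Neither batch alone reached the threshold, at -0.88 in batch 1 (adjusted p = 0.271, edgeR) and -0.59 in batch 2 (adjusted p = 0.0896, edgeR).

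DUSP8 and DUSP16, the other enzymes of this group, did not pass. DUSP16, a JNK phosphatase that moves between nucleus and cytoplasm, ranged from 48.3 to 76.5 CPM in general and from 55.2 to 78.2 CPM in HHH. HHH was above general in batch 1 and overlapped it in batch 2, with a log2 fold change of 0.11 and a 95% interval of -0.048 to 0.26 (adjusted p = 0.424, edgeR). DUSP8, known mainly from brain and heart, was the lowest member at 23 to 58 counts per library. It was at 0.383 and 0.704 CPM in general and at 0.729 and 0.687 CPM in HHH in batch 1, and at 0.868, 1.02 and 0.784 CPM in general and at 0.721, 0.484 and 0.407 CPM in HHH in batch 2. The populations overlapped in batch 1, and HHH was below general in batch 2. The log2 fold change of DUSP8 was -0.30 with a 95% interval of -0.85 to 0.25 (adjusted p = 0.542, edgeR), which includes the size of the DUSP10 difference.

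**Figure D2:**
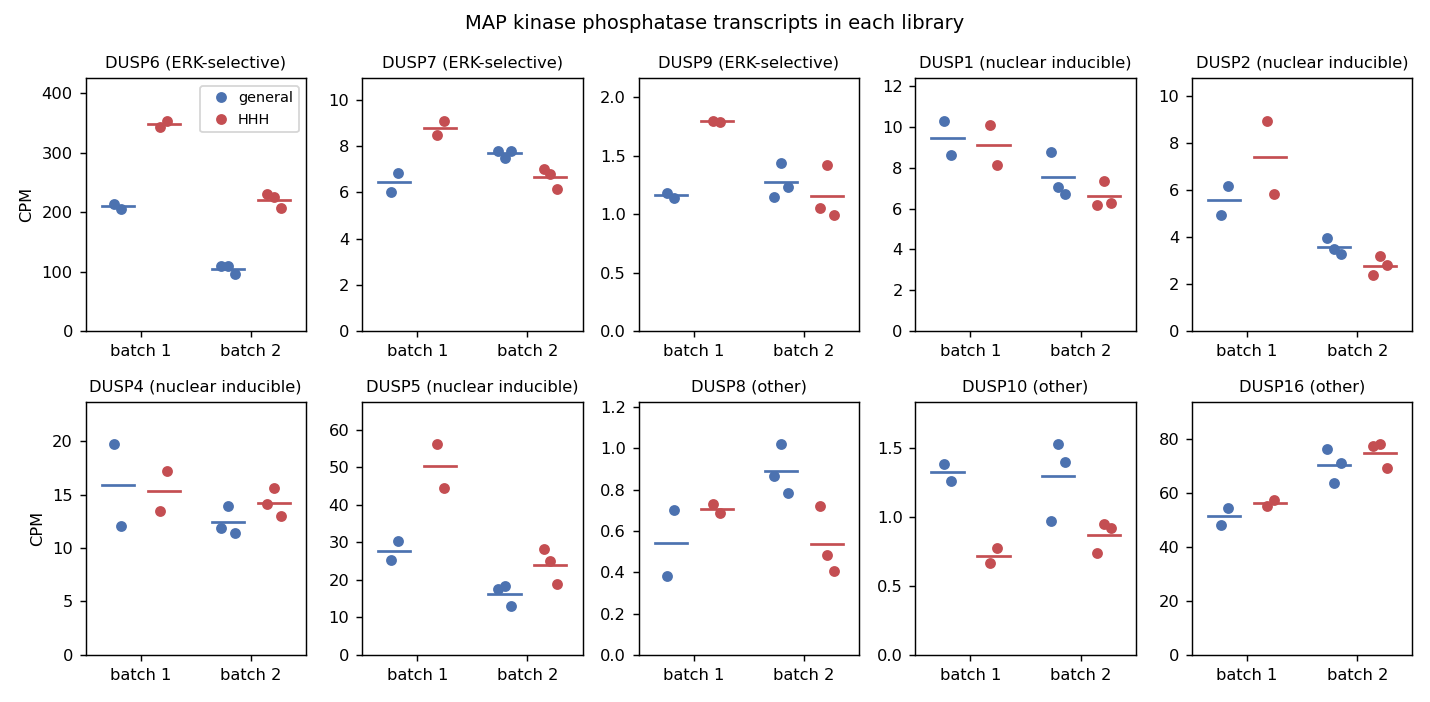
CPM (vertical axis, from 0) of the 10 phosphatases, 1 panel a gene, with 1 point for each library and a line at the mean of each population in each batch, general in blue and HHH in red. For DUSP6 and DUSP5 every red point lies above every blue point of its batch, and for DUSP10 every red point lies below. For DUSP7 red lies above blue in batch 1 and below it in batch 2.

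Ranges that did not overlap in either batch were thus found above general for 2 members (DUSP6 and DUSP5) and below for 1 (DUSP10). Over all tested genes 3.93% lay above general in both batches and 5.42% below.

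Set side by side per kilobase of exon, the family was dominated by DUSP6. In general the mean level was 38 ± 15.0 CPM per kb for DUSP6 (SD, n = 5), and DUSP16 and DUSP5 followed at 8.81 and 8.24 CPM per kb with overlapping ranges. DUSP1 was at 4.12 CPM per kb, DUSP2 and DUSP4 overlapped at 2.26 and 1.90, DUSP7 was at 1.27, DUSP10 and DUSP9 overlapped at 0.464 and 0.443, and DUSP8 was lowest at 0.152 CPM per kb. In HHH the mean level of DUSP6 was 70.6 ± 18.3 CPM per kb (SD, n = 5). DUSP5 stood at 13.6 and DUSP16 at 9.47 CPM per kb, with overlapping ranges. Then came DUSP1, DUSP2 and DUSP4 at 3.79, 2.39 and 2.02 CPM per kb, each overlapping the next, and DUSP7 at 1.32 CPM per kb. DUSP9 stood at 0.509 CPM per kb, above DUSP10 at 0.287 and DUSP8 at 0.122 CPM per kb, with no overlap between these neighbours. As a description, DUSP6 made up 50.3 to 65.5% of the summed level of the 10 genes per kb in general libraries and 65.8 to 70.9% in HHH libraries. The ratio of DUSP6 to DUSP7 per kb was 44.1 to 51.7 in general and 57.0 to 59.9 in HHH in batch 1, and 18.0 to 21.4 in general and 48.2 to 49.7 in HHH in batch 2. The ratio to DUSP16 was likewise higher in every HHH library than in every general library of its batch. To DUSP9, with 56 to 84 counts per library, the ratio differed little in batch 1, at 130 in general and 137 to 142 in HHH. In batch 2 it was 54.2 to 68.4 in general and 114 to 158 in HHH. The ratio to DUSP5 overlapped in batch 1, at 4.49 to 5.56 in general and 4.04 to 5.21 in HHH, and was 3.88 to 4.86 in general and 5.39 to 7.2 in HHH in batch 2.

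**Figure D3:**
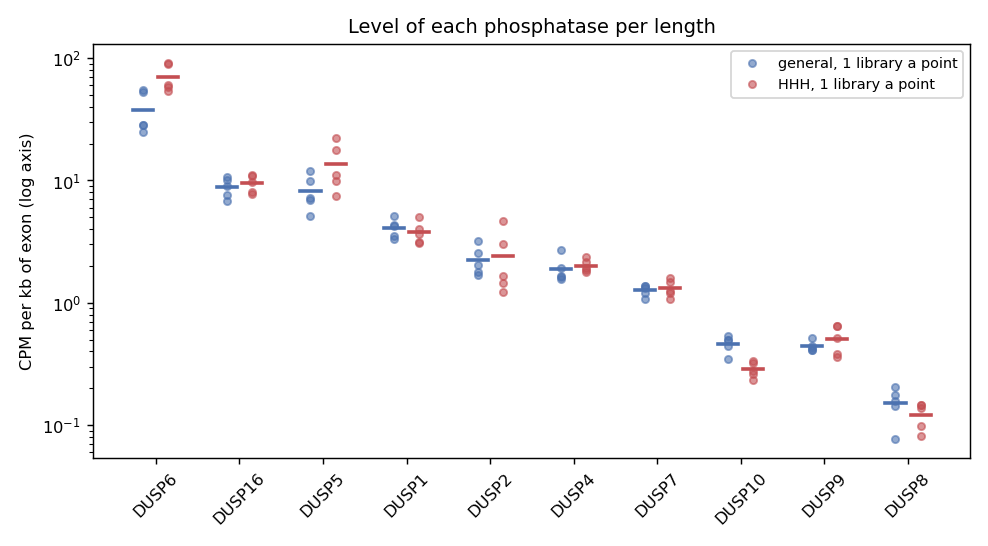
Level of each phosphatase as CPM per kb of exon on a log axis, in the order of the general means, with 1 point for each library and a line at each mean, general in blue and HHH in red. DUSP6 lies above all other members in both populations, and the red points of DUSP10 lie below its blue points.

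The level of several members also differed between the batches. In the same fit 5 of the 10 passed for batch 2 against batch 1 at an adjusted p under 0.05, and 47.9% of all tested genes did. The share of members was thus close to that of all genes. DUSP6, DUSP5, DUSP2 and DUSP1 were lower in batch 2, with log2 differences of -0.83, -0.92, -1.03 and -0.40, and DUSP16 was higher by 0.43. For DUSP6 and DUSP5 the batch difference was about as large as the difference between the populations, whereas for DUSP10 it was 0.10 (adjusted p = 0.657, edgeR). The calls of all 3 were lost in a fit of the 10 libraries without a batch term. The log2 fold changes were then 0.89 for DUSP6, 0.73 for DUSP5 and -0.69 for DUSP10, and none of the 3 passed (adjusted p = 0.207, 0.475 and 0.127, edgeR). Over all tested genes 168 passed without a batch term, in place of 1373.

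Whether the difference between the populations itself depended on the batch was tested by the batch by population term. None of the 10 members passed at an adjusted p under 0.05 in edgeR (0.777% of all tested genes did), whereas 5 had an unadjusted p under 0.05, as did 18.9% of all tested genes. DESeq2 called 1 member, DUSP7 (adjusted p = 0.0349), and limma with voom called none. Over all genes DESeq2 called 828 and limma with voom 166, where edgeR called 183. The difference between the batches, as the log2 fold change of batch 2 minus that of batch 1, was -0.65 for DUSP7 (adjusted p = 0.0927, edgeR), and HHH lay above general in batch 1 and below it in batch 2. It was -0.77 for DUSP9 (adjusted p = 0.197, edgeR), -0.77 for DUSP2 (adjusted p = 0.168, edgeR) and -1.11 for DUSP8 (adjusted p = 0.206, edgeR). For DUSP6 it was 0.35 (adjusted p = 0.199, edgeR), with HHH higher in both batches. The number of members under an unadjusted p of 0.05 fell to 2 without general batch 1 replicate 1 or without HHH batch 1 replicate 2, and was 3 to 5 without any other single library.

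The 4 members with a negative term under an unadjusted p of 0.05 were the 4 richest in GC. DUSP7, DUSP9, DUSP2 and DUSP8 had 59.1 to 66.3% GC in their longest annotated transcript and the other 6 members 45.3 to 55.8%. Across the 10 members the Spearman correlation of GC content with the batch by population term was -0.973, given as a description over genes that share the same libraries. The same ran through all tested genes, whose median batch by population term was 0.18 for genes below 45% GC and -0.50 for genes at 65% or more. After removal of a GC trend from each library the term was -0.44 for DUSP7, -0.35 for DUSP9, -0.43 for DUSP2 and -0.66 for DUSP8. In that fit 2 members (DUSP6 and DUSP7) kept an unadjusted p under 0.05, and 16 genes in all passed in place of 183. That trend was fitted to the same libraries, so the smaller terms of the GC-rich members are built into this step. Whether GC content caused the dependence on batch was not tested. The calls of DUSP6, DUSP5 and DUSP10 were kept under this removal, with log2 fold changes of 0.95, 0.73 and -0.69. The bins of GC content were chosen after the data had been seen.

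**Figure D4:**
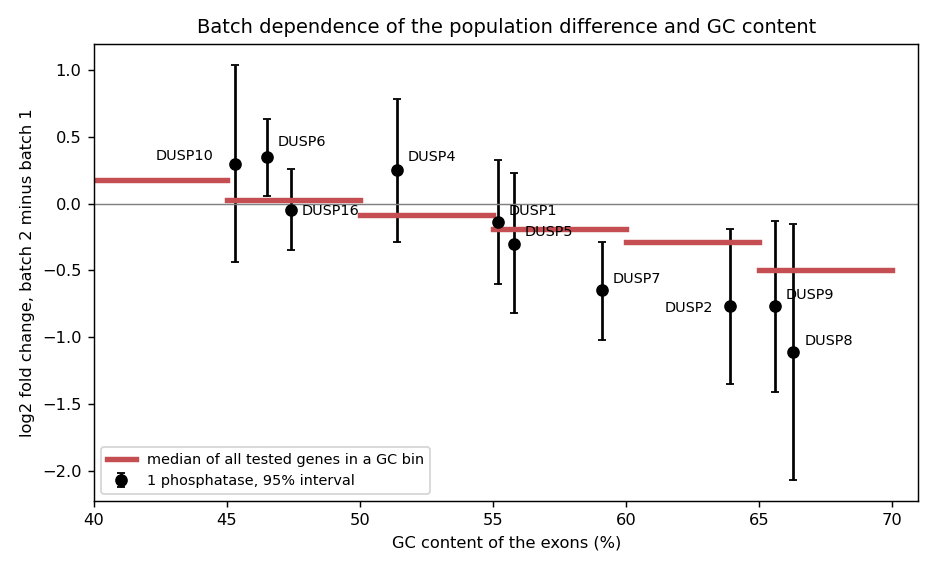
Batch by population term (log2 fold change of HHH against general in batch 2 minus that in batch 1) of each phosphatase with its 95% interval, against the GC content of its exons, taken from its longest annotated transcript. Red lines give the median of all tested genes in a bin of GC content, where the first bin holds all genes below 45% and the last all at 65% or more. The members fall from DUSP6 at 0.35 to DUSP8 at -1.11, and the red lines fall from 0.18 to -0.50.

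The genes around the phosphatases were counted in the same fit, in which 1.94% of all tested genes rose and 3.89% fell. Of 16 further DUSP and related genes, listed here as atypical DUSPs, 15 had a count row and 13 were tested. None rose and 1 fell, DUSP18, at a log2 fold change of -0.49 (adjusted p = 0.0233, edgeR), and at -0.44 with the replicate block (adjusted p = 0.0618, edgeR). Its call was also lost without general batch 1 replicate 1, HHH batch 1 replicate 2, HHH batch 2 replicate 1, HHH batch 2 replicate 2 or general batch 2 replicate 1. STYXL1 and DUSP11 rose without HHH batch 1 replicate 3, and both rose with DUSP23 under the GC trend removed and the replicate block. STYXL1 also rose in batch 2 alone. Of the exonic length of DUSP18 34.3% overlaps a gene on the opposite strand, and whether strand was used in counting is not given in the sources used here. Of the kinases that the phosphatases act on and the genes above them, none of the 10 of the RAS-RAF-MEK-ERK cascade passed in edgeR, 0 had an unadjusted p under 0.05, and none passed with DESeq2 or with limma and voom. With the GC trend removed and the replicate block 1 passed, HRAS, as higher. MAP2K2 and ARAF lay above general in batch 1 (log2 fold changes 0.40 and 0.18) and below it in batch 2 (-0.17 for both). Their batch by population terms had an adjusted p of 0.0720 and 0.197 in edgeR. Of 11 genes of the p38 and JNK cascade 1 fell, MAPK10, the JNK gene of neurons, at -0.51 (adjusted p = 0.0157, edgeR).

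Other targets and inhibitors of ERK signalling rose with DUSP6 and DUSP5. Of 10 ERK feedback inhibitors and ETS targets 6 rose and none fell, where 1.94% of all tested genes rose and 3.89% fell. The median log2 fold change was 0.39 (0.016 over all tested genes). ETV5 and ETV4, ETS factors transcribed downstream of FGF, rose by 0.72 (adjusted p = 0.000187, edgeR) and 0.58 (adjusted p = 0.000174, edgeR) on the log2 scale. SPRY4 and SPRY2, Sprouty inhibitors of the pathway, rose by 0.70 (adjusted p = 0.00107, edgeR) and 0.44 (adjusted p = 0.00746, edgeR). IL17RD, a membrane inhibitor of FGF signalling, rose by 0.56 (adjusted p = 0.00284, edgeR), and SPRED1, an inhibitor of RAF activation, by 0.34 (adjusted p = 0.0497, edgeR). SPRED1 was no longer past the threshold under RLE and upper quartile scaling (adjusted p = 0.0533 and 0.0692, edgeR), nor with 1 library left out in 8 of 10 cases (adjusted p up to 0.141, edgeR). The number that rose was 5 in those 8 cases. It was 7, with ETV1 added, without general batch 1 replicate 1 or HHH batch 1 replicate 3, and also with the replicate block. SPRY2 was named by the study from these libraries as well. With limma on the deposited log2 values 3 of the 10 were past the threshold (ETV4, ETV5 and SPRY4), and in batch 1 alone 1 was (SPRY4). Without a batch term 1 of the 10 was past it (ETV4).

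Immediate early genes did not move together. Of 15 immediate early and dissociation genes 1 rose and 4 fell, with a median log2 fold change of -0.076. Over all tested genes the shares were 1.94% and 3.89%. IER3 rose by 0.74 on the log2 scale (adjusted p = 4.32e-05, edgeR). EGR1, EGR2 and EGR3, transcription factors induced by ERK and serum, had log2 fold changes of -1.19 (adjusted p = 0.000288, edgeR), -1.12 (adjusted p = 0.000940, edgeR) and -1.95 (adjusted p = 0.00116, edgeR), and BTG2, an antiproliferative gene, fell from 5.02 ± 1.54 CPM (SD, n = 5) to 2.50 ± 0.296 CPM (SD, n = 5; adjusted p = 0.00732, edgeR). The direction of the EGR genes was thus opposite to that of DUSP5 and DUSP6. Under a filter of at least 1 CPM in 5 libraries EGR2 and EGR3 were no longer among the calls. In batch 1 alone IER3 was the only gene of the list past the threshold. The summed level of the list ran from 203 to 221 CPM in general and from 195 to 259 CPM in HHH, and its part in the phosphatase differences was not tested.

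**Figure D5:**
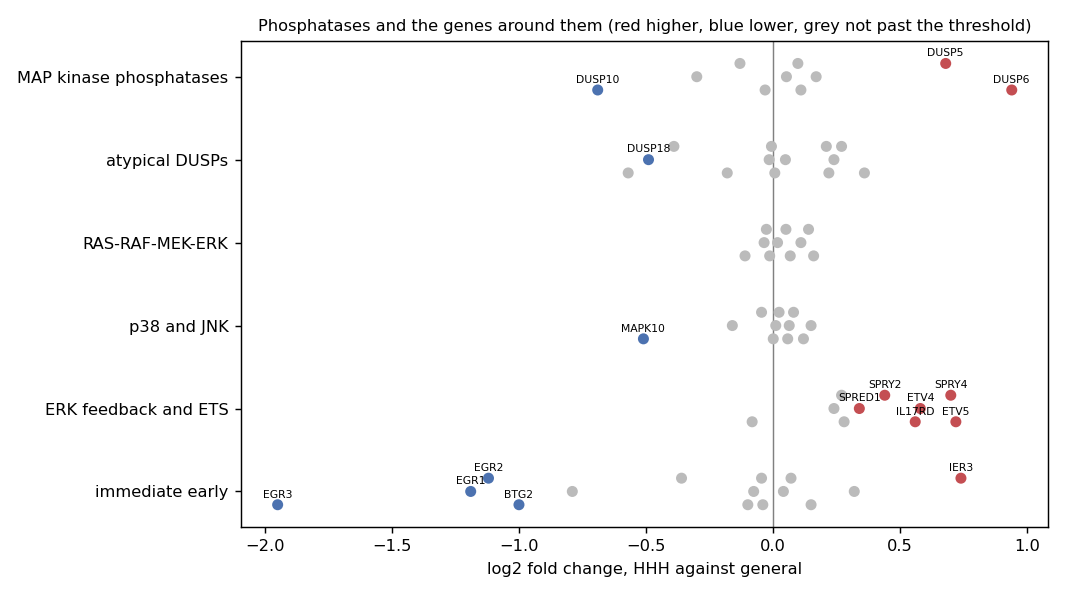
Log2 fold change of HHH against general (horizontal axis) for each tested gene of the family and of 5 lists around it, 1 point a gene, spread vertically for legibility. Red points rose and blue points fell at an adjusted p under 0.05, and grey points did not pass. The RAS-RAF-MEK-ERK row is grey throughout, and 6 of the 10 points of the ERK feedback and ETS row are red.

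By the correlation of log2 CPM over the 10 libraries, after subtraction of each batch mean, the genes most like DUSP6 were RBM47 (r = 0.994), ETV5 (0.983), ERRFI1 (0.976), TES (0.974) and THY1-AS1 (0.973), among 10173 genes of at least 10 CPM. ETV5 is thus the closest of the ERK target list, and ERRFI1 encodes a feedback inhibitor of the EGF receptor. For DUSP5 they were KRT18 (0.969), HK1 (0.968), GSPT1 (0.965), ZNF721 (0.965) and GRM4 (0.963). For DUSP9 they were CMTM3 (0.964), AP1M1 (0.952), RNH1 (0.947), TSR3 (0.947) and SLC25A39 (0.939). The 5 genes nearest to DUSP6 all rose in HHH, at log2 fold changes of 0.46 to 0.72, whereas none of the 5 nearest to DUSP9 passed. These values still hold the difference between the populations and are a description.

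Markers of cell type were counted in the same fit, in which 1.94% of all tested genes rose and 3.89% fell. EPCAM, an antigen of the sort, rose by 0.41 on the log2 scale (adjusted p = 0.00645, edgeR), and CD9 had a log2 fold change of 0.29 (adjusted p = 0.195, edgeR). Of 9 pluripotency markers 1 rose (NANOG) and 2 fell (SOX2 and PRDM14), and POU5F1, the defining pluripotency factor, was at 516 ± 30.9 CPM (SD, n = 5) in general against 570 ± 72.6 CPM (SD, n = 5) in HHH. Of 9 neural markers tested 5 fell (LHX5, LIX1, ZIC1, DLK1 and SOX1) and 1 rose, SOX3, and the defining marker PAX6 was at 0.700 to 1.16 CPM over all libraries. LHX5 fell from 6.82 ± 3.23 CPM (SD, n = 5) to 0.145 ± 0.128 CPM (SD, n = 5). With the replicate block the calls of SOX2 and SOX3 were lost (adjusted p = 0.0773 and 0.0822, edgeR), and TDGF1 and CD9 rose (adjusted p = 0.0342 and 0.0186, edgeR). The summed level of the neural list ran from 223 to 299 CPM in general and from 152 to 293 CPM in HHH. Mesoderm and endoderm markers summed to 0.996 to 2.62 CPM over all libraries, and amnion and trophoblast markers to 5.73 to 10.6 CPM in general and 3.46 to 5.60 CPM in HHH. KRT7 was the only amnion and trophoblast marker tested, and it fell, at a log2 fold change of -0.76. The part of such cells in the phosphatase levels was not tested, and in bulk RNA fewer cells of a type and less RNA per cell cannot be told apart.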

How the data were processed

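RNA from 5 general and 5 HHH libraries was prepared with TruSeq kits. The authors deposited whole counts per Ensembl gene without normalization, and a second table of log2 values, treated here as a score, that the authors had scaled by TMM, converted to RPKM and centred by batch. The submitters' processing notes name CASAVA 1.8.2, R 3.2.2, limma 3.26.9 and the genome build GRCh37. The aligner, the counting tool and the annotation are not given in the sources used here. Coordinates, exon lengths and GC content came from GENCODE 44 (GRCh38), which matched 88.5% of the 55841 identifiers. Exon length was that of all exons of a gene together, and GC content that of its longest transcript. Titles gave each library its population, batch and replicate number.

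Genes were kept by filterByExpr (minimum count 10) and scaled by TMM (factors 0.832 to 1.18). HHH was compared with general in edgeR 4.0.16 (R 4.3.3) by a two-sided quasi-likelihood F test with a batch term and Benjamini-Hochberg adjustment over all 23552 tested genes. Of these, 1373 passed at an adjusted p under 0.05. The script was tested on simulated data. 1 count stood for 0.0153 to 0.0229 CPM, and floors and intervals of counts cover counting error only. The common biological coefficient of variation (0.128) and a chi-square of 5.77 to 48.7 per degree of freedom between libraries of a population and batch show spread beyond counting error. Libraries with the same replicate number in a batch correlated in their deviations from the group means at 0.113 in batch 1 and 0.239, 0.143 and 0.113 in batch 2. In batch 1, with 2 libraries a group, the deviations are mirror images and a pair of unlike numbers also gave 0.113, so the pairing rests on batch 2. The replicate block, 1 block for each replicate number of a batch, was run as an alternative. General batch 1 replicate 1 and HHH batch 1 replicate 3 have no partner in their blocks. They add nothing to the difference between the populations in that fit. Further alternatives were no batch term, other scalings and filters, DESeq2 1.42.0, limma 3.58.1 with voom or on the deposited log2 values, stricter thresholds, removal of a GC trend (spline with 5 degrees of freedom), small RNAs and mitochondrial genes left out, fits of a single batch, and leaving out any 1 library.

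All 10 members were named with their values. Of the other lists, genes that passed were named (at most 6 a list, by adjusted p), together with defining markers of cell types, and for DUSP6, DUSP5 and DUSP9 the 5 genes with the highest correlation. The members and lists were chosen with earlier results of these data known. Proteins were not analysed here.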

Additional observations from a re-analysis of the deposited data

How the results depend on the processing

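DUSP6 kept its direction under all 28 alternatives and its call under 27 of them, DUSP5 its direction under 28 and its call under 25, and DUSP10 its direction under 28 and its call under 18. The replicate block changed none of these 3 calls (log2 fold changes 1.00, 0.64 and -0.65), in a fit where general batch 1 replicate 1 and HHH batch 1 replicate 3 had no partner. The number of members past the threshold was 0 without a batch term and 1, DUSP6, in a test against 1.5-fold, with 2 or 3 under every other alternative. With 1 library left out it was 2 to 3. The number of genes past the threshold, 1373 in the main comparison (458 higher and 915 lower), was 168 without a batch term, 2423 without a filter, 616 at an adjusted p under 0.01, 701 over 1.5-fold, 132 in a test against 1.5-fold, 2498 with the GC trend removed and the replicate block, 136 in batch 1 alone and 3166 in batch 2 alone. It ran from 808 without HHH batch 2 replicate 2 to 2347 without HHH batch 1 replicate 3, and was also over 1.5 times lower without HHH batch 2 replicate 1 (831), general batch 2 replicate 1 (896) or general batch 2 replicate 3 (841). The split was 248 higher and 817 lower with library size only, 804 and 1004 with the GC trend removed, and 54 and 1183 on the deposited log2 values, whose median over all genes was -0.12 in place of 0.016. For the batch by population term DESeq2 called 1 member, DUSP7, among 828 genes, where edgeR called 0 members among 183 genes.

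Members that did not pass changed sign as follows. DUSP2 was at 0.080 without a batch term, 0.060 with the GC trend removed, 0.050 with that and the replicate block, 0.41 in batch 1 alone, and -0.22 to 0.068 with 1 library left out. DUSP7 was at -0.081 with the replicate block, -0.085 on the deposited log2 values, -0.21 in batch 2 alone and -0.036 to 0.12 with 1 library left out. DUSP4 was at -0.026 and DUSP16 at -0.029 on the deposited log2 values. DUSP4 was at -0.054 and DUSP8 at 0.38 in batch 1 alone, and DUSP9 at -0.15 in batch 2 alone. The cause of these changes was not tested. DUSP8, DUSP9 and DUSP10 had 23 to 91 counts per library, and DUSP8 was not tested under a filter of at least 1 CPM in 5 libraries.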
